A study of Mus musculus with 20 samples.

Results

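The conjugating enzymes and the organic anion transporters of Hepa1-6 cells were taken as every gene whose symbol in the array annotation belongs to the Ugt1, Ugt2 or Ugt3, the Sult, the Gst or the Slco families. This rule gave 58 of the 18193 genes measured: 10 UDP-glucuronosyltransferase (Ugt) genes, 13 sulfotransferase (Sult) genes, 20 glutathione S-transferase (Gst) genes and 15 organic anion transporter (Slco) genes. Where a gene had several probe sets, the one brightest on average over the 20 arrays stood for it. Symbols found only on probe sets that name several genes were not members: 8 Ugt1a genes, Ugt2a1, Ugt2a2 and Gsta1. Hepa1-6 is an established hepatoma line from a C57L mouse liver tumour, so all groups are cultures of 1 line. All cultures were held without serum or growth factors from 4 h before the start. They then received 1 ng/ml TGFβ1 (treated) or no addition (untreated, which the labels call basal), and RNA was taken at 0, 1, 3, 6 and 10 h. Each of the 10 groups held 2 biological duplicates, each on its own Affymetrix array, and the labels call the treated 0 h samples equivalent to the untreated ones. Values are log2 RMA signals as the authors deposited them, in which a step of 1 is a doubling.

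These genes encode the conjugation and uptake steps by which hepatocytes clear hormones, bile pigments, drugs and reactive chemicals. Ugt enzymes attach glucuronic acid in the endoplasmic reticulum, Sult enzymes transfer sulfate in the cytosol, and Gst enzymes join glutathione to electrophiles. Slco genes encode transporters that bring organic anions into cells, and TGFβ1 is a cytokine known to restrain growth and differentiated functions of hepatocytes.

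Duplicate arrays correlated at 0.9958 to 0.9971 over all probe sets, and array medians lay between 5.15 and 5.21. The means of 7 hepatocyte markers ran from 4.45 for Ahsg, below the array medians, through 5.65 for Ttr to 12.0 for Alb and 12.8 for Afp. The means of 4 biliary markers ran from 6.78 for Krt19 to 10.2 for Krt7. Those of other liver cells were mixed, from 2.73 (Lrat) to 6.65 (Des) for 4 stellate, from 3.65 (Pecam1) to 5.36 (Kdr) for 4 endothelial and from 3.31 (Ptprc) to 6.63 (Csf1r) for 5 macrophage and leukocyte genes. The TGFβ1 response was present in the treated arrays, with Smad7, an inhibitor that the pathway induces, 2.45 higher at 1 h on the log2 scale.

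Many members gave weak signals in these cells. The mean value exceeded the highest array median in 23 of 58 members (39.7%), against 11326 of 18193 genes (62.3%). By family, 3 of 10 Ugt, 2 of 13 Sult, 13 of 20 Gst and 5 of 15 Slco genes were above it. The brightest probe sets were those of Ugt2b34 (mean 8.13), Ugt2b35 (7.01) and Ugt3a1 (5.41) among the Ugt genes, and of Sult1c2 (5.78), Sult5a1 (5.26) and Sult1a1 (5.12) among the sulfotransferases. They were those of Gstp1 (12.5), Gsto1 (11.4) and Gsta4 (10.2) among the Gst genes, and of Slco2a1 (9.64), Slco4a1 (7.93) and Slco2b1 (7.80) among the transporters. Probe sets differ in their response, so these values do not rank the genes by transcript number. Of genes known from mouse liver and named here after their values were seen, the uptake transporter gene Slco1a1 had a mean of 5.47, and the glucuronosyltransferase genes Ugt2b1 and Ugt2b5 had means of 3.40 and 3.01.

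**Figure D1:**
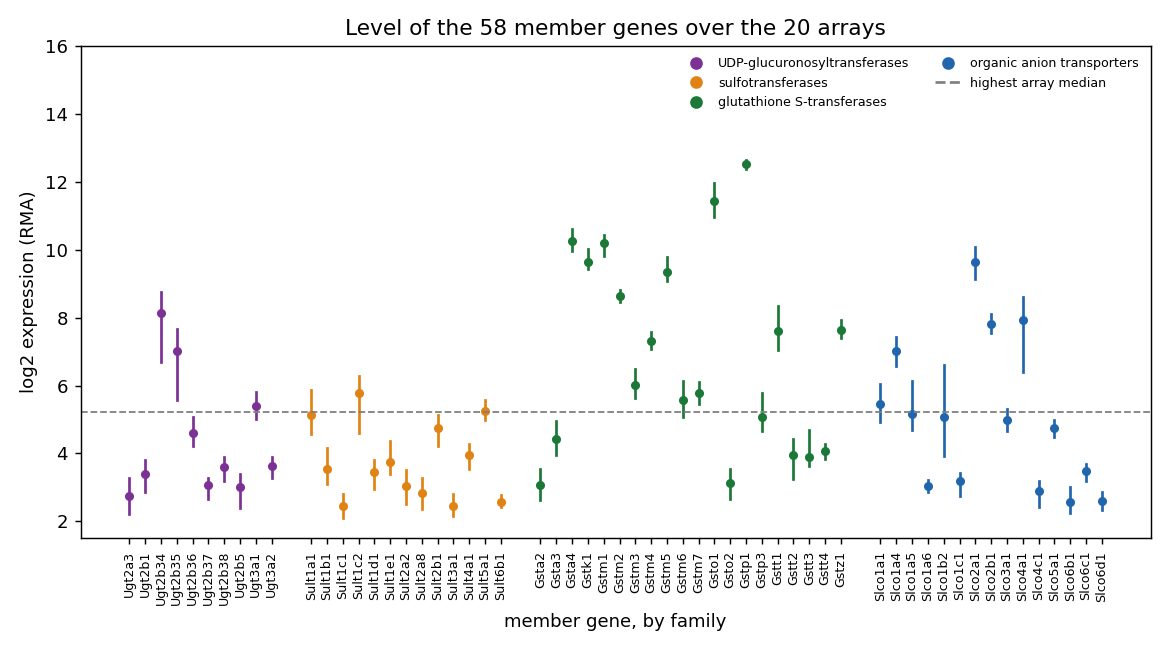
Log2 RMA value (y axis) of each of the 58 members, grouped by family in alphabetical order (x axis). Points are means over the 20 arrays, bars run from the lowest to the highest array, and the dashed line is the highest array median (5.21); 13 of 20 Gst means lie above it and 11 of 13 Sult means do not.

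More of these genes were called lower than higher in TGFβ1-treated cells at 3, 6 and 10 h, and the same held over all genes at 3 and 6 h. Ugt2b35, Ugt2b34, Slco1b2 and Sult1c2 were lowest against untreated cells at 10 h. In RNA from whole cultures, fewer expressing cells and less RNA per cell cannot be told apart. Treated and untreated cultures were compared at each time with limma, and a gene was called at a Benjamini-Hochberg adjusted p under 0.05 over all 18193 genes. At 0 h no member was called, nor was any of the 18193 genes (0%). At an unadjusted p under 0.05 there were 7 of 58 members, among them 4 of 20 Gst genes, and 740 of 18193 genes. That is a larger share of the members than of all genes before any treatment. At 1 h no member was called, against 2.24% of all genes, and 2 members and 1786 genes had an unadjusted p under 0.05. At 3 h 1 member was higher and 4 were lower (8.62% called, against 15.3% of all genes). At 6 h 5 were higher and 10 lower (25.9%, against 15.7%), and at 10 h 3 were higher and 8 lower (19.0%, against 9.14%). Over all genes, 6.73% were higher and 8.55% lower at 3 h, 7.77% and 7.96% at 6 h, and 5.07% and 4.06% at 10 h. Single arrays moved these counts: without treated 3 h replicate 2 or untreated 3 h replicate 2, 2 members were lower at 3 h, and without untreated 3 h replicate 1, 2 were higher. Without treated 6 h replicate 2 or untreated 6 h replicate 1, 2 members were higher at 6 h.

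The size of the difference itself changed with time in several members, tested directly as a difference of differences. It changed between 1 and 3 h in 3 members (6.41% of all genes), between 3 and 6 h in 6 (4.55%), between 6 and 10 h in 1 (2.44%) and between 1 and 10 h in 8 (4.02%). Slco1b2 moved furthest between 1 and 10 h, by -2.45 (limma adjusted p = 5.88e-05), and Slco4a1 moved by -1.67 between 1 and 3 h (adjusted p = 2.65e-08) and back by 0.81 between 3 and 6 h (adjusted p = 7.06e-04).

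Among the 23 members above the array medians, 4 were called at 3 h, 12 at 6 h and 10 at 10 h, and the shares of all genes above the medians were 23.4%, 24.1% and 14.1%. Of the 35 dimmer members, 1, 3 and 1 were called at these times (2.86%, 8.57% and 2.86%), and the shares of all genes not above the medians were 1.82%, 1.85% and 0.932%. The median log2 difference over the 58 members was -0.06 at 1 h, -0.13 at 3 h, -0.06 at 6 h and -0.11 at 10 h, and that over all genes was -0.01, -0.02, -0.03 and -0.00. No member was called at all 4 times, 4 were called at 3 times, 7 at 2 times, 5 at 1 time and 42 at none. The matching distribution over all genes was not counted, so these counts do not compare the members with other genes.

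**Figure D2:**
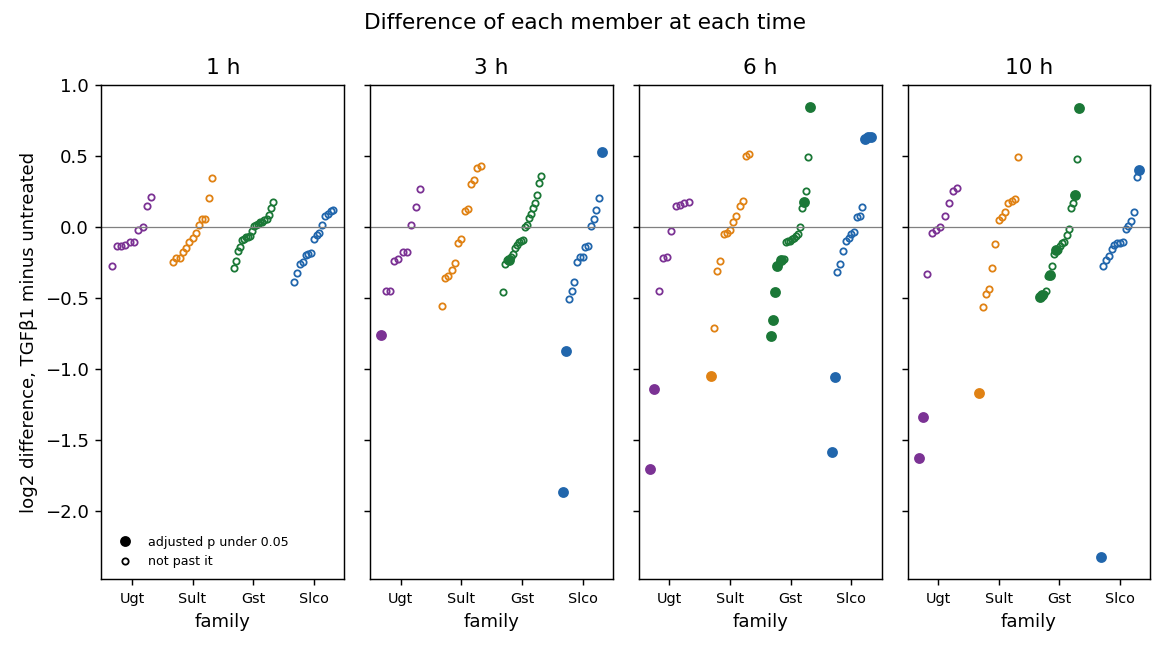
Log2 difference of treated from untreated cells (y axis) for every member, in 1 panel per time (1, 3, 6 and 10 h) with the families along the x axis, sorted by value within a family. Filled points had a limma adjusted p under 0.05. The only called Ugt genes (Ugt2b34 and Ugt2b35) and the only called Sult gene (Sult1c2) lie below 0, and the called Gst and Slco genes lie on both sides of it.

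The glucuronosyltransferase genes Ugt2b34 and Ugt2b35 were lower in treated cells, and the other 8 Ugt genes were not called at any time. By time, 1 Ugt gene was lower at 3 h, 2 at 6 h and 2 at 10 h. These were 10%, 20% and 20% of the 10 Ugt genes, against 15.3%, 15.7% and 9.14% of all genes. Both enzymes belong to the UGT2B subfamily, known for the glucuronidation of steroids and bile acids. Ugt2b35 was the earlier of the pair to be called, at 3 h, and Ugt2b34 was called from 6 h. The lowest array of each untreated group lay above the highest array of the treated group for both genes at 3, 6 and 10 h, though Ugt2b34 was not called at 3 h. The share of all genes with arrays apart in this way is not given here, so this describes the values only.

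The 250 bases before the start of these 2 genes, and before those of Slco1b2 and Sult1c2, are shown because these 4 genes had the lowest log2 differences among the members at 10 h. Sequences are from RefSeq on the GRCm38.p6 build, written 5′ to 3′ on the gene's own strand. Ugt2b35 lies at chr5:87000610-87000859 on the plus strand, Ugt2b34 at chr5:86906938-86907187 on the minus strand, Slco1b2 at chr6:141629268-141629517 on the plus strand and Sult1c2 at chr17:53845959-53846208 on the minus strand. Capitals mark matches to any of 5 short motifs searched on both strands.
Ugt2b35: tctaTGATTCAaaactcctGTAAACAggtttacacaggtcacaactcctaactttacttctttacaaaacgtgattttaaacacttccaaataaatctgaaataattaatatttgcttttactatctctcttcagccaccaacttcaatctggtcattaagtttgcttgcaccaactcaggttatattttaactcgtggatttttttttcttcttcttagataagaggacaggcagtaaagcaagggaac
Ugt2b34: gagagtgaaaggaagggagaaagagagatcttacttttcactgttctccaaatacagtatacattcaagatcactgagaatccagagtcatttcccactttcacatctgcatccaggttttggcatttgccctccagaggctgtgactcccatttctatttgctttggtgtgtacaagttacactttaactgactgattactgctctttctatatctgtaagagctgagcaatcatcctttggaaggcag
Slco1b2: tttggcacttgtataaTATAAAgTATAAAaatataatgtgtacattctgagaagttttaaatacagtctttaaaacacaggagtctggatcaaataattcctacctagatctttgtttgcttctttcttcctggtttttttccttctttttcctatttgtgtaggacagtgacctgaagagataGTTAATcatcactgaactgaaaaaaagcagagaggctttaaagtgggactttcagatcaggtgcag
Sult1c2: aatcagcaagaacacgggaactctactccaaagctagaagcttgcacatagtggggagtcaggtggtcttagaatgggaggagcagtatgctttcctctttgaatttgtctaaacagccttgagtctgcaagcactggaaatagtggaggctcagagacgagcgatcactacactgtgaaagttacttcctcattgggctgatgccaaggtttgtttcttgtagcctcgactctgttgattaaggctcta

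A FOXA-like motif was searched as TGTTTAC and an HNF1 half-site as GTTAAT. An AP-1-like motif was searched as TGANTCA, the core of the box that Smad proteins bind as CAGACA, and a TATA-box motif as TATAAA. The Ugt2b35 window held the AP-1-like motif 246 to 240 bases before the start and, on the opposite strand, the FOXA-like motif 231 to 225 bases before it. The Slco1b2 window held the TATA-box motif at 234 to 229 and at 227 to 222 bases before the start, and the HNF1 half-site at 66 to 61 bases. None of the 5 was found in the Ugt2b34 and Sult1c2 windows, and no matches overlapped in the windows shown. Of the 51 members with a promoter entry, 3 held the FOXA-like motif (Ugt2b35, Ugt2b37 and Ugt2b38), 6 the HNF1 half-site, 9 the AP-1-like motif, 8 the Smad core and 10 the TATA-box motif. Over all 32851 windows of this length the shares were 3.17%, 6.43%, 6.75%, 17.13% and 12.37%. A match describes letters only and no factor was measured at these sites.

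Ugt2b35 gave 7.56 and 7.44 in the untreated cultures at 0 h, 7.57 and 7.46 at 1 h, 7.33 and 7.19 at 3 h, 7.37 and 7.29 at 6 h, and 7.52 and 7.66 at 10 h. In treated cultures it gave 7.36 and 7.55 at 0 h, 7.29 and 7.47 at 1 h, 6.50 and 6.50 at 3 h, 5.66 and 5.58 at 6 h, and 5.97 and 5.95 at 10 h. The untreated arrays thus stayed near their 0 h level throughout, and the treated arrays were lowest at 6 h. The difference was -0.76 ± 0.10 (SE) at 3 h (limma adjusted p = 5.31e-06) and -1.71 ± 0.10 at 6 h (adjusted p = 4.31e-11). At 10 h it was -1.63 ± 0.10 (limma adjusted p = 3.95e-10), a 3.09-fold lower level.

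Ugt2b34 gave 8.70 and 8.45 in untreated cultures at 0 h, 8.75 and 8.32 at 1 h, 8.52 and 8.42 at 3 h, 8.38 and 8.28 at 6 h, and 8.16 and 8.02 at 10 h. Treated cultures gave 8.56 and 8.69, 8.55 and 8.52, 8.19 and 8.26, 7.09 and 7.28, and 6.69 and 6.82 at the same times. Both arms drifted down and the treated arm went further, so that it was lowest at 10 h. The difference was -1.14 ± 0.11 (SE) at 6 h (limma adjusted p = 1.53e-07) and -1.34 ± 0.11 at 10 h (adjusted p = 4.80e-08, 2.53-fold lower). Untreated cells alone lost 0.49 between 0 and 10 h (log2 difference -0.49, adjusted p = 0.00219), a call that was lost without untreated 0 h replicate 1 (adjusted p = 0.0630), and treated cells lost more (-1.87, adjusted p = 8.84e-11).

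The Ugt1a genes, which include the bilirubin-conjugating Ugt1a1, are measured here only through 3 probe sets that the annotation assigns to 8 Ugt1a genes together, and were not members. In a fit over all 45037 probe sets, treated minus untreated at 10 h was -0.21 (limma adjusted p = 0.58), -0.37 (adjusted p = 0.013) and -0.30 (adjusted p = 0.57) for the 3 sets. At 10 h against 0 h in treated cells the same sets gave -0.28 (adjusted p = 0.22), -0.57 (adjusted p = 4.7e-05) and -0.69 (adjusted p = 0.015). One of the 3 sets was thus called in both comparisons, in a fit that called 4.57% of probe sets between the arms at 10 h and 18% in treated cells over time, and the 8 genes cannot be told apart on them. Ugt3a1, of the Ugt3 family, differed by 0.08 at 10 h with a 95% interval of -0.27 to 0.43.

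Sult1c2, a cytosolic sulfotransferase of the SULT1 subfamily, was the 1 sulfotransferase gene called between treated and untreated cells, lower at 6 and 10 h. Untreated cultures gave 5.69 and 6.05 at 0 h, 5.92 and 5.99 at 1 h, 6.11 and 5.97 at 3 h, 6.28 and 5.87 at 6 h, and 6.11 and 5.87 at 10 h. Treated cultures gave 6.24 and 6.25, 5.87 and 6.15, 5.88 and 5.70, 4.94 and 5.10, and 4.60 and 5.03. The treated arrays at 6 and 10 h lay below every untreated array. At 0 h the treated arrays were above the untreated ones, a difference that was not called. The difference was -1.05 ± 0.17 (SE) at 6 h (limma adjusted p = 9.25e-05) and -1.17 ± 0.17 at 10 h (adjusted p = 6.50e-05). The other 12 sulfotransferase genes were not called between treated and untreated cells at any time. The share of the 13 Sult genes called was 0% at 3 h and 7.69% at 6 and 10 h. Of all genes, 15.3%, 15.7% and 9.14% were called at 3, 6 and 10 h. Sult1a1, a phenol sulfotransferase, differed by -0.71 at 6 h (95% interval -1.26 to -0.17, adjusted p = 0.0739), and Sult5a1 by -0.29 at 10 h (95% interval -0.67 to 0.09).

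Genes of glutathione conjugation differed in both directions, and on the chosen probe sets every called difference was smaller than 1 on the log2 scale, a doubling (a second Gsto1 set gave 1.03 at 10 h). Gsto1, an omega-class enzyme that reduces dehydroascorbate, was higher in treated cells, and the mu-class genes Gstm1 and Gstm2 and the theta-class gene Gstt1 were lower. Gsta4, whose product detoxifies aldehydes from lipid peroxidation, was slightly higher. By time, 1 Gst gene was lower at 3 h, 2 were higher and 5 lower at 6 h, and 2 were higher and 4 lower at 10 h. These were 5%, 35% and 30% of the 20 Gst genes, against 15.3%, 15.7% and 9.14% of all genes.

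Gsto1 gave 11.50 and 11.51 in untreated cultures at 0 h, 11.54 and 11.24 at 1 h, 11.42 and 11.23 at 3 h, 10.96 and 11.09 at 6 h, and 11.01 and 11.12 at 10 h. Treated cultures gave 11.26 and 11.46, 11.51 and 11.45, 11.38 and 11.61, 11.96 and 11.77, and 11.95 and 11.85. From 6 h on the arms lay on opposite sides of their 0 h values. The difference was 0.84 ± 0.09 (SE) at 6 h and again at 10 h, with limma adjusted p-values of 8.54e-07 and 2.44e-06. A second Gsto1 set (mean 11.2) was already called at 3 h in the fit over all probe sets, at 0.37 (limma adjusted p = 1.55e-04). That set gave 0.77 at 6 h and 1.03 at 10 h.

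Gstt1 gave 7.17 and 7.06 in untreated cultures at 0 h, 7.42 and 7.44 at 1 h, 7.55 and 7.78 at 3 h, 8.05 and 7.99 at 6 h, and 8.28 and 8.34 at 10 h. Treated cultures gave 7.24 and 7.21, 7.38 and 7.29, 7.49 and 7.43, 7.49 and 7.64, and 7.69 and 7.97. The level climbed in both arms and less far in the treated one, so that treated cells were -0.46 ± 0.10 (SE) at 6 h (limma adjusted p = 0.00148) and -0.48 ± 0.10 at 10 h (adjusted p = 0.00184). The 10 h call was lost without treated 10 h replicate 1 (adjusted p = 0.0809).

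Gstm1 gave 10.29 and 10.03 in untreated cultures at 0 h, 10.21 and 10.14 at 1 h, 10.16 and 10.22 at 3 h, 10.43 and 10.34 at 6 h, and 10.38 and 10.25 at 10 h. Treated cultures gave 10.43 and 10.28, 10.14 and 10.29, 10.11 and 10.08, 10.12 and 10.11, and 9.83 and 9.82. The treated arrays at 10 h were below every other array of this gene. The difference was -0.50 ± 0.07 (SE) at 10 h (limma adjusted p = 9.84e-05), and -0.27 at 6 h (adjusted p = 0.0126), where the call was lost without treated 6 h replicate 1 (adjusted p = 0.0569), treated 6 h replicate 2 (0.0733) or untreated 6 h replicate 1 (0.119), and without the variance trend (0.0621).

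Gstm2 gave 8.80 and 8.81 in untreated and 8.47 and 8.47 in treated cultures at 10 h, a difference of -0.34 ± 0.06 (SE) (limma adjusted p = 0.00138). At 3 and 6 h it was -0.23 at each time (adjusted p = 0.0165 and 0.0155). Both earlier calls were lost when some single arrays were left out, which leaves 1 array in that group. The 3 h difference was then -0.18, -0.25 or -0.21 without treated 3 h replicate 2, untreated 3 h replicate 1 or untreated 3 h replicate 2. The 6 h difference was -0.17, -0.24 or -0.23 without treated 6 h replicate 2, untreated 6 h replicate 1 or untreated 6 h replicate 2. Gsta4 gave 10.33 and 10.32 in untreated and 10.48 and 10.62 in treated cultures at 10 h, a difference of 0.23 ± 0.05 (SE) (adjusted p = 0.00993). It was 0.17 at 6 h (adjusted p = 0.0322). The 10 h call of Gsta4 was lost without treated 10 h replicate 2 (adjusted p = 0.191) or untreated 10 h replicate 1 or 2 (0.0632 or 0.0776), and without the variance trend (0.0589). The 6 h call of Gsta4 was lost without treated 6 h replicate 2 (0.289) or untreated 6 h replicate 1 or 2 (0.166 or 0.0760), without the variance trend (0.104) and with further quantile normalization (0.107), and likewise when the compared groups were fitted alone (0.0607) and in the fit over all probe sets (0.0626). The 6 h call of Gstm2 was also lost with the compared groups alone (0.0616).

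Gst genes called at 1 time only were chosen for mention after their values were seen. Gstp1, the pi-class enzyme with the brightest probe set of the family, was -0.16 at 10 h (limma adjusted p = 0.0362), Gstm6 -0.65 at 6 h (adjusted p = 0.0103) and Gstp3 -0.77 at 6 h (adjusted p = 0.00348). Each was lost when single arrays were left out. The adjusted p of Gstp1 was 0.154 or 0.152 without treated 10 h replicate 1 or 2 and 0.253 or 0.0917 without untreated 10 h replicate 1 or 2, and 0.173 without the variance trend, 0.0819 with centred arrays and 0.0551 in the fit over all probe sets. That of Gstm6 was 0.0586 or 0.0554 without treated 6 h replicate 1 or 2 and 0.141 without untreated 6 h replicate 1, and that of Gstp3 was 0.0568 without treated 6 h replicate 1.

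Among the transporters, Slco1b2 and Slco4a1 were lower in treated cells, at different times, and Slco2a1 was higher. Slco1b2 is the mouse liver uptake carrier related to the human OATP1B transporters of bilirubin and statins. Slco4a1 encodes a broadly expressed carrier that transports thyroid hormones, and Slco2a1 encodes the prostaglandin transporter. By time, 1 Slco gene was higher and 2 were lower at 3 h, 3 were higher and 2 lower at 6 h, and 1 was higher and 1 lower at 10 h. These were 20%, 33.3% and 13.3% of the 15 Slco genes, against 15.3%, 15.7% and 9.14% of all genes.

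Slco1b2 gave 4.83 and 4.65 in untreated cultures at 0 h, 5.10 and 4.63 at 1 h, 5.55 and 5.66 at 3 h, 6.20 and 5.82 at 6 h, and 6.60 and 6.33 at 10 h. Treated cultures gave 4.55 and 4.88, 4.58 and 5.39, 4.95 and 4.51, 4.57 and 4.29, and 4.34 and 3.94. The untreated arrays climbed with time, while treated arrays stayed below the array medians apart from 1 array at 1 h. The difference was -0.88 ± 0.23 (SE) at 3 h (limma adjusted p = 0.012) and -1.58 ± 0.23 at 6 h (adjusted p = 3.93e-05). At 10 h it was -2.33 ± 0.23 (limma adjusted p = 6.50e-07). The 10 h value, a 5.02-fold lower level, was the lowest difference of all 18193 genes at that time, each read from its brightest probe set. It rests on 1 of 5 probe sets of Slco1b2: the second gave -1.50 at 10 h and the other 3 were not called. The 3 h call was lost without treated 3 h replicate 2 (adjusted p = 0.169) or untreated 3 h replicate 2 (0.0822). Treated values below the array medians may lie near the array's background, whose level is not known here, which would limit the fold.

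Slco4a1 gave 7.97 and 8.04 in untreated cultures at 0 h, 8.16 and 8.14 at 1 h, 8.26 and 8.40 at 3 h, 8.60 and 8.46 at 6 h, and 8.46 and 8.20 at 10 h. Treated cultures gave 8.10 and 7.92, 7.95 and 7.96, 6.40 and 6.53, 7.39 and 7.56, and 8.07 and 8.05. The treated level dropped between 1 and 3 h and was back within its 0 h range at 10 h. The difference was -1.87 ± 0.09 (SE) at 3 h (limma adjusted p = 3.68e-12, 3.64-fold lower) and -1.06 ± 0.09 at 6 h (adjusted p = 2.65e-08). At 10 h it was -0.27 ± 0.09 (adjusted p = 0.0693).

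Slco2a1 gave 9.63 and 9.71 in untreated cultures at 0 h, 9.64 and 9.70 at 1 h, 9.50 and 9.49 at 3 h, 9.42 and 9.41 at 6 h, and 9.13 and 9.15 at 10 h. Treated cultures gave 9.57 and 9.72, 9.73 and 9.79, 10.00 and 10.06, 10.09 and 10.01, and 9.60 and 9.50. The untreated level ran down, and the treated level rose to 6 h and then returned. The difference was 0.53 ± 0.06 (SE) at 3 h (limma adjusted p = 5.12e-07) and 0.63 ± 0.06 at 6 h (adjusted p = 4.60e-08). At 10 h it was 0.40 ± 0.06 (limma adjusted p = 6.26e-05). Slco2b1, a transporter of steroid sulfates, was not called at any time (-0.13 at 10 h, 95% interval -0.40 to 0.15). Slco1a1 and Slco1a5, picked for mention after their values were seen, were 0.62 (adjusted p = 0.0363) and 0.64 (adjusted p = 0.0454) higher at 6 h only. The call of Slco1a1 was lost without treated 6 h replicate 2 (adjusted p = 0.342) or untreated 6 h replicate 1 (0.331), and that of Slco1a5 without treated 6 h replicate 2 (0.515) or untreated 6 h replicate 1 or 2 (0.0978 or 0.205). Without the variance trend neither was called (0.0757 and 0.0921), nor with the compared groups alone (0.0708 and 0.0741) or in the fit over all probe sets (0.0609 and 0.0759), Slco1a1 was not called with the mean of its probe sets (0.129) and Slco1a5 not with array weights (0.0554).

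**Figure D3:**
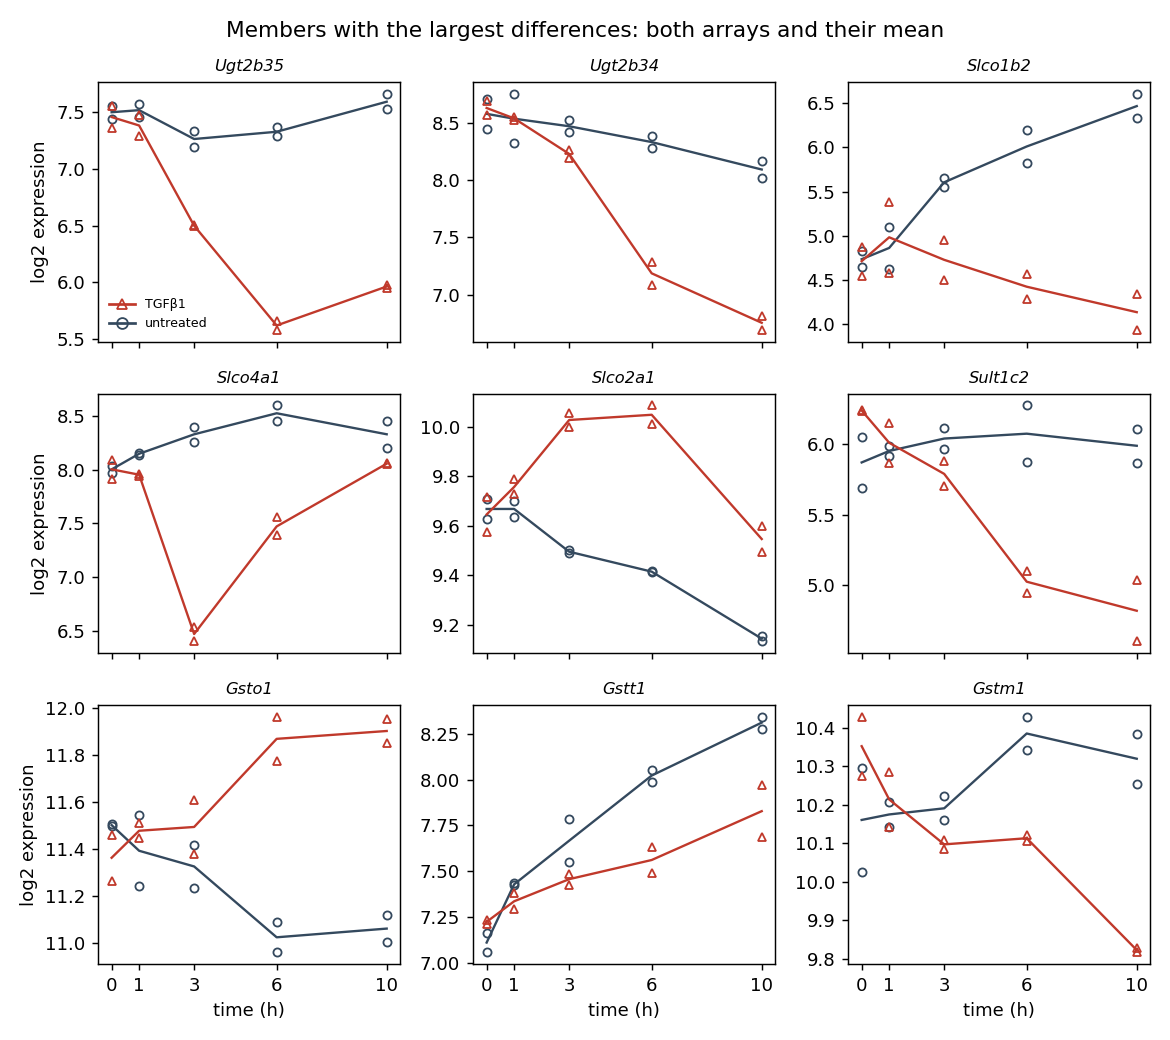
Log2 RMA value (y axis) against hours after the start (x axis) for 9 members called at 2 or more times, with 1 symbol per array (triangles treated, circles untreated) and lines through the means of duplicates; each panel has its own y axis. Ugt2b35 and Ugt2b34 fall under treatment, Slco4a1 is lowest at 3 h and near 8 again at 10 h, and Slco1b2 climbs in untreated cells.

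Each arm was also set against its own 0 h arrays, which share the 10 h arrays with the comparison between arms, so the values stand side by side here and support nothing further. In untreated cells 6 members were higher and none lower at 3 h than at 0 h (10.3%, against 8.16% of all genes), and 12 were higher and 2 lower at 6 h (24.1%, against 20.7%). In treated cells 3 were higher and 4 lower at 3 h (12.1%, against 15.8%), and 9 were higher and 6 lower at 6 h (25.9%, against 24%). In untreated cells 9 members were higher and 3 lower at 10 h than at 0 h (20.7%, against 26.1% of all genes), and in treated cells 6 were higher and 6 lower (20.7%, against 28% of all genes). In 4 members (Ugt2b35, Sult1c2, Gstm1 and Gstp1) treated cells fell and untreated cells were not called, and in 5 (Gsta4, Gstk1, Gstm5, Gstt1 and Sult2b1) both arms rose. Gstm2 and Gsto1 moved in opposite directions in the arms, Ugt2b34 fell in both, and Slco1b2, Slco4a1, Gstm6 and Slco2a1 changed in untreated cells without a call in treated cells. The matching patterns over all genes were not counted, so these counts do not compare the members with other genes.

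Ugt2b35 changed by -1.49 in treated cells (limma adjusted p = 2.90e-10) and by 0.09 in untreated cells (adjusted p = 0.586). Sult1c2 changed by -1.42 (adjusted p = 1.01e-06) and 0.12 (adjusted p = 0.706). Slco1b2 changed by -0.58 (adjusted p = 0.0759) in treated and by 1.73 (adjusted p = 7.99e-06) in untreated cells. Gsto1 changed by 0.54 (adjusted p = 1.06e-04) and by -0.44 (adjusted p = 9.83e-04), and Gstt1 by 0.60 (adjusted p = 4.06e-05) and by 1.20 (adjusted p = 7.31e-09). Slco2a1 changed by -0.10 (adjusted p = 0.244) and by -0.52 (adjusted p = 5.01e-07). Gstm5, a mu-class gene, rose by 0.47 in treated and by 0.66 in untreated cells, and Gstk1, a mitochondrial and peroxisomal enzyme, rose by 0.48 and 0.41. In untreated cells the calls of Gstm2 (0.24) and Sult2b1 (0.52), a cholesterol sulfotransferase, were lost without untreated 0 h replicate 2 (adjusted p = 0.0889 and 0.240), that of Sult2b1 also without untreated 10 h replicate 2 (0.374), and that of Slco4a1 (0.33) without untreated 0 h replicate 1 (0.0788) or untreated 10 h replicate 1 (0.228). In treated cells the calls of Gstm2 (-0.23) and Sult2b1 (0.68) were lost without treated 0 h replicate 1 (0.0691) and treated 10 h replicate 2 (0.0505).

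**Figure D4:**
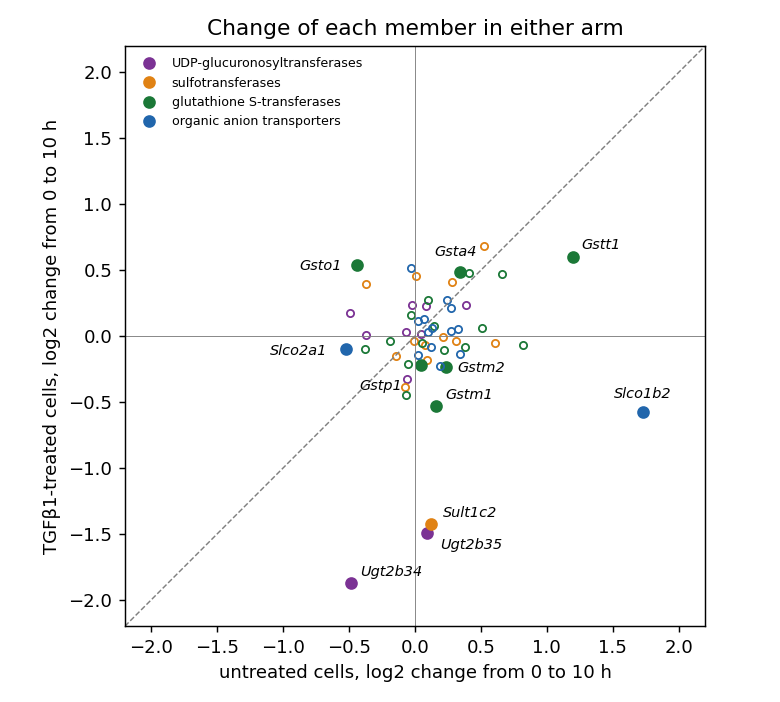
Log2 change from 0 to 10 h in treated cells (y axis) against that in untreated cells (x axis), 1 point per member coloured by family, with filled points where limma called the difference between the arms at 10 h and equal change on the dashed diagonal. Slco1b2 sits at 1.73 on the x axis and -0.58 on the y axis, and Ugt2b34, Ugt2b35 and Sult1c2 lie at -1.87, -1.49 and -1.42 on the y axis.

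Members with several probe sets allowed the same RNA to be read more than once. All 4 Gstm1 sets were called lower at 10 h in the fit over all 45037 probe sets, at -0.50, -0.87, -0.50 and -0.51, and both sets of Ugt2b34 gave -1.34 and -1.47. Gsto1 gave 0.84 and 1.03 at 10 h, and Slco4a1 gave -1.87 and -0.97 at 3 h. This fit called 9.03% of all probe sets at 3 h and 4.57% at 10 h. Slco1b2 was not uniform: its 2 brightest sets (means 5.07 and 4.90) gave -2.33 and -1.50 at 10 h, and 3 dimmer sets (means 2.71, 2.89 and 4.01) gave -0.22, -0.17 and -0.17 and were not called. Gstm7, a mu-class gene named after its values were seen, was called at no time on its chosen set (mean 5.79), which gave -0.23, 0.00 and -0.01 at 3, 6 and 10 h. Its other set (mean 5.11) was called lower at each of these times, at -0.74, -0.88 and -0.65 (limma adjusted p = 0.00872, 0.00195 and 0.0383), in a fit that called 8.96% of all probe sets at 6 h. The 4 sets of Slco2a1 were all above 0 at 3, 6 and 10 h, but only the brightest was called at each of these times. The other 3 were not called at 10 h, at 0.18, 0.39 and 0.25. Of these, 1 was not called at 3 h (0.25) and another not at 6 h (0.30). Ugt2b35, Sult1c2, Gstt1, Gstm2 and Gsta4 were each read by 1 probe set. For 7 members, among them Ugt2b34, Gstm1, Gsto1, Slco1b2 and Slco4a1, the chosen set carries a suffix by which the manufacturer marks probes that may match related transcripts, so a share of their signal from close relatives cannot be told apart.

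**Figure D5:**
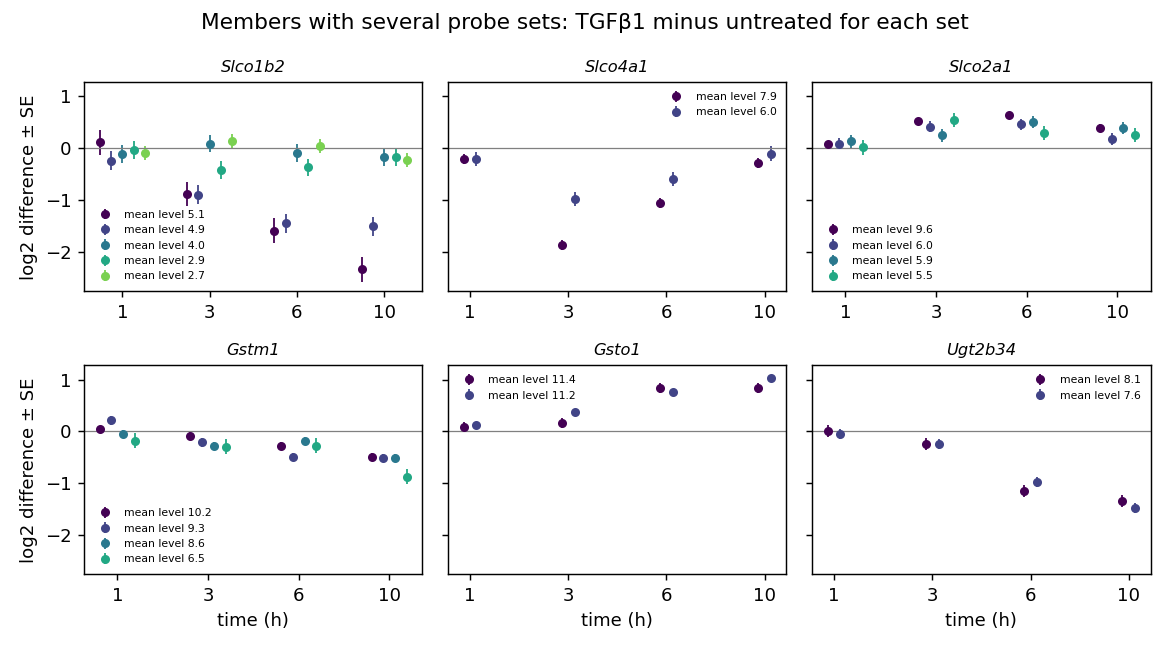
Log2 difference of treated from untreated cells (y axis) at 1, 3, 6 and 10 h (x axis) for each probe set of 6 members with several sets; points are estimates, bars are standard errors, and the legends give each set's mean log2 value. The 2 brightest Slco1b2 sets run down to -2.33 and -1.50 at 10 h and the 3 dimmer ones stay between -0.22 and -0.17 there.

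Genes outside the families whose patterns over the 10 group means were most like those of the members were taken from the 934 genes whose group means spanned at least 1. For Ugt2b35 these were Deptor (r = 0.990), Tgfbr3 (0.973) and Aqp11 (0.966), and for Slco4a1 the first was Ccrl2 (0.981). For Slco1b2 the first was Tmed6 (0.967), and for Gstt1 it was Aldoc (0.983). The most alike gene of Ugt2b34 was Sult1c2 (0.957), itself a member. These correlations are descriptions over 10 points that share time and treatment.

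Of the steps around conjugation, cofactor supply was measured through 12 of 13 listed genes. Among them 2 were higher and none lower at 1 h, and 2 higher and 3 lower at 3 h. There were 1 higher and 2 lower at 6 h, and 3 higher and none lower at 10 h. The share called over all genes was 2.24% at 1 h, 15.3% at 3 h, 15.7% at 6 h and 9.14% at 10 h. Papss2, which makes the sulfate donor for the Sult enzymes, was higher at every time after 0 h, by 0.62, 2.44, 2.58 and 1.75 at 1, 3, 6 and 10 h (limma adjusted p = 0.00331, 3.96e-12, 2.25e-12 and 3.11e-09). Gclm and Gclc encode the subunits of the first enzyme of glutathione synthesis. At 3 h Gclm differed by 0.50 (adjusted p = 2.91e-08) and Gclc by -0.16 (adjusted p = 0.131). At 6 h Gclm differed by 0.06 (adjusted p = 0.415) and Gclc by -0.56 (adjusted p = 4.55e-06).

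Efflux pumps for conjugates were measured through 11 of 11 genes, with none called at 1 h and 1 higher and 1 lower at 3 h. At 6 h 1 was higher and 4 were lower, and at 10 h 1 was higher and 2 were lower. Of all genes, 2.24%, 15.3%, 15.7% and 9.14% were called at 1, 3, 6 and 10 h. Abcc4, an exporter of conjugated bile acids, was -0.78 at 6 h (limma adjusted p = 2.96e-07), Abcb1b, a drug exporter, was -0.45 at 3 h (adjusted p = 0.00283), and Abcg2, an exporter of sulfate conjugates, was 0.41 at 10 h (adjusted p = 0.00042). None of 6 measured uptake carriers outside the Slco families was called at any time. The bile acid carrier gene Slc10a1 differed by -0.22 at 10 h (adjusted p = 0.84), at means of 4.40 in treated and 4.62 in untreated cells.

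Regulators of these genes were measured through 16 of 18 genes, with 3 higher and 2 lower at 1 h and 2 and 2 at 3 h. The counts were 2 and 3 at 6 h and 2 and 2 at 10 h. Beside these and the counts below stand the shares of all genes called, 2.24%, 15.3%, 15.7% and 9.14% at 1, 3, 6 and 10 h. Foxa2, a liver transcription factor, was lower in treated cells at every time after 0 h, at -0.49, -1.28, -0.55 and -0.23 for 1, 3, 6 and 10 h (limma adjusted p = 1.01e-05, 1.49e-12, 7.18e-07 and 0.0161). Foxa1 was 0.88 higher at 1 h (adjusted p = 2.91e-10) and Cebpb 0.76 higher at 1 h (adjusted p = 1.39e-09). Of 12 measured genes for other conjugation and phase 2 enzymes, none was called at 1 h, 3 were lower at 3 h, 2 higher and 2 lower at 6 h, and 1 higher and 2 lower at 10 h. Ephx1, which opens epoxides, was -0.35 at 6 h (adjusted p = 2.54e-05), and Nqo1, a quinone reductase, was -0.56 at 10 h (adjusted p = 1.59e-06). Of 3 measured deconjugation genes, Gusb, which removes glucuronic acid, was 0.18 higher at 10 h (adjusted p = 0.0205). Of 7 measured targets of NRF2 outside the families, 1 was higher and none lower at 1 h, 1 and 2 at 3 h, 1 and 1 at 6 h, and none and 1 at 10 h.

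Markers of cell identity moved with treatment in the same cultures. Of 7 measured hepatocyte markers 3 were lower and none higher at 10 h, with Alb at -0.49, Afp at -0.53 and Fgb at -1.09. The other 4 were not called, at -0.34 for Apoa1, -0.07 for Apoa2, 0.15 for Ttr and 0.43 for Ahsg. The summed unlogged signal of the list was 9720 to 9960 in treated and 14100 to 14200 in untreated cultures at 10 h. Alb and Afp, the brightest genes of the list, dominate that sum. Of 4 measured biliary markers 2 were higher and none lower at 10 h, with Krt7 at 0.93 and Epcam at 0.37. Krt19, at -0.25, and Sox9, at 0.00, were not called. The summed signals were 3550 to 3560 in treated and 2360 to 2490 in untreated cultures. Krt7 and Epcam, the brightest of the 4, dominate these sums. No marker of the stellate, endothelial or leukocyte lists was called at 10 h, when 9.14% of all genes were called. The part of these shifts in the member differences was not tested.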

How the data were processed

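RNA of Hepa1-6 cultures was measured on 20 Affymetrix arrays in 10 groups of 2. The authors deposited log2 values, 1 per probe set and array, made with RMA per the submitters' processing notes. Not given in the sources used here: the RMA version, the probe definitions and the genome build. RMA sets the arrays to a common distribution and compresses dim signals. Of 45037 probe sets, 34945 name 1 gene, 932 several and 9160 none; the first gave 18193 genes, each read from its brightest set. A model with 1 mean for each group was fitted over all 20 arrays in limma 3.58.1 (R 4.3.3) (moderated variances with an intensity trend, 10 residual degrees of freedom), and p-values were adjusted by Benjamini-Hochberg over all genes, with a threshold of 0.05. Precision is limited by the number of arrays: the median SE was 0.13 for a difference at 1 h. Nothing says how the duplicates were made beyond being biological, so p-values measure the spread between these cultures. The fit was tested on simulated data.

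Text names, per family, members past the threshold at 2 or more of the 4 later times, the largest rise and fall at each time, the 3 brightest members, untreated changes of at least 1 from 0 to 10 h, and up to 3 genes with the lowest adjusted p per pathway list. The members and lists were chosen with earlier results of these data known. Promoter windows are RefSeq sequences; 51 of 58 members had an entry. Alternatives were further normalization, array weights, no variance trend, probe set means, a level filter, a replicate block, separate fits and leaving out single arrays.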

Additional observations from a re-analysis of the deposited data

Results flagged for a closer look

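The TGFβ1 effect (treated minus untreated, log2) of 11 members differed between times by a direct test of the difference in limma with an adjusted p under 0.05, and these are given as values. Between 1 and 3 h the effect moved by -1.67 for Slco4a1, -0.63 for Ugt2b35 and 0.44 for Slco2a1. Between 3 and 6 h it moved by -0.94 for Ugt2b35, -0.90 for Ugt2b34, 0.68 for Gsto1, 0.81 for Slco4a1, 1.12 for Slco1a1 and 1.08 for Sult2a8. Between 6 and 10 h it moved by 0.78 for Slco4a1. Slco1a1 went from -0.51 at 3 h, which was not called, to 0.62 at 6 h, and Sult2a8, a sulfotransferase gene whose mean of 2.83 lies below the array medians, was not called at either time.

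Between 1 and 10 h the effect moved downward for 6 members and upward for 2 (8 of 58 called, against 4.02% of all genes). It moved by -2.45 for Slco1b2, -1.49 for Ugt2b35, -1.34 for Ugt2b34, -1.23 for Sult1c2, -0.54 for Gstm1 and -0.36 for Gstm2, and by 0.76 for Gsto1 and 0.31 for Slco2a1. These differences use the same arrays as the effects at each time and are no further evidence for them.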

How the results depend on the processing

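Of 55 single calls, 37 were kept under every alternative, 18 were lost under at least 1 and 0 reversed. Without the variance trend 1 member was lower at 1 h and 2 were higher at 6 h. With the mean of a gene's probe sets 2 were higher and 7 lower at 3 h. With the compared groups alone 7 were lower at 3 h and 2 higher at 6 h. Among genes above the median level only, 3 were higher and 6 lower at 6 h. The cause was not tested for any of these.

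Leaving out single arrays gave 1 to 2 members higher and 2 to 6 lower at 3 h (2 lower without treated 3 h replicate 2 or untreated 3 h replicate 2), and 2 to 5 higher and 7 to 9 lower at 6 h (2 higher without treated 6 h replicate 2 or untreated 6 h replicate 1). At 10 h it gave 2 to 3 higher and 6 to 8 lower. Replicate numbers were not used to pair the arms, and the labels do not say whether a number marks a shared batch. Duplicates' deviations correlated at -0.0625 to 0.0927 across the 5 times, which does not settle it. With the replicate number as a block 1 member was higher and 5 lower at 3 h, 5 and 10 at 6 h, and 3 and 8 at 10 h. Over all genes, further quantile normalization gave 822 higher and 901 lower at 10 h, against 923 and 739, and 102 lower and 322 higher at 1 h, against 59 and 348. Dim probe sets limit the Sult and Ugt families most, with 18 of 23 members not above the array medians.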

Other observations

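The alpha-class genes Gsta1 and Gsta2 share a probe set with the predicted gene Gm3776. In the fit over all probe sets it was -1.10 in treated cells at 10 h against 0 h (limma adjusted p = 0.00793) and -0.52 between treated and untreated cells at 10 h (adjusted p = 0.465). Its mean of 3.69 lies below the array medians, and the untreated cultures at 0 h differed from each other, at 2.92 and 4.05.

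Sult1e1, the oestrogen sulfotransferase gene, gave 4.10 and 4.36 in treated cultures at 3 h and 3.44 and 3.55 at 0 h, a change of 0.74 (limma adjusted p = 0.00964). Between treated and untreated cells at 3 h it differed by 0.43 without a call (adjusted p = 0.228 in the fit over all probe sets).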
